A study of Mus musculus with 6 samples.

Results

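The genes described here encode the basement membrane, the sheet of collagen IV, laminin, nidogen and proteoglycans that surrounds each smooth muscle cell, and the dystrophin-glycoprotein complex, its receptor. They were chosen by symbol as a list of 33 genes, and all 33 of the listed symbols were found among the 44792 genes of the count table. Expression was measured by RNA sequencing of cultured primary vascular smooth muscle cells, which lie within the artery wall and contract it, from C57BL/6 mice. The control group (wild type by its label, littermates by the design text) held 3 libraries, and so did the group with a smooth muscle deletion of Ncor1 (labelled Ncor1-/-). Ncor1 encodes a nuclear receptor corepressor. The design text has the cells of both groups exposed to 4-hydroxytamoxifen, the drug that induces the deletion, so the controls share that exposure. It names 3 mice and also 3 technical replicates for each group. The p-values therefore measure only how these libraries vary, and that variation may be technical. The promoter that drives the recombinase, the age of the mice and the time of exposure are not stated in the labels or the design text.

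A basement membrane is built from polymers that form separately and are then joined. Laminins, each a trimer of an alpha, a beta and a gamma chain, assemble on the cell surface, and collagen IV trimers form a covalent network beside them. Nidogens and the proteoglycan perlecan bridge these networks. Cells hold the sheet through integrins and through dystroglycan, which in muscle is tied to the actin cytoskeleton by dystrophin or utrophin and is accompanied by the sarcoglycans.

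The libraries held 7125538 to 9579490 counts, of which the 33 genes took 0.938% to 0.961% in the controls and 0.845% to 0.907% in the knockout. For Ncor1 itself the control libraries gave 213, 223 and 230 CPM and the knockout libraries 99.3, 93.7 and 94.4 CPM. The labelled cell type was checked against marker lists. Of 10 smooth muscle markers, all tested, 9 were lower in the knockout, and their summed level was 11629 to 11844 CPM in control against 3929 to 4133 CPM in the knockout. Of 15 endothelial markers 14 were higher and 1 was lower, with sums of 1929 to 2008 and 6761 to 6911 CPM and no marker at 0. Of the 13 tested macrophage and leukocyte markers, 11 were higher, with sums of 48.5 to 74.2 and 577 to 633 CPM and no marker at 0. Fewer markers of other cells were tested. Of 3 fibroblast markers 1 was higher (Dcn) and 2 were lower (Pdgfra and Col14a1), with sums of 124 to 127 and 357 to 367 CPM. Dcn carried the rise in the sum, with means of 26.1 CPM in control and 321 CPM in the knockout. Both tested Schwann and neural markers were lower, with sums of 10.2 to 11.8 and 3.23 to 4.34 CPM. Of 6 epithelial markers only Krt18 was tested, and it was higher (log2 fold change 1.63). The others (Epcam, Cdh1, Krt5, Krt14 and Krt8) were too low in both groups to be tested. Of 10 skeletal and cardiac muscle markers Myod1, Myog, Myh6, Myh7 and Pax7 were at 0. Endothelial cells and macrophages also make basement membrane components, and the part of these cells in the results below was not tested. In bulk RNA fewer cells of a type and less RNA per cell cannot be told apart.

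CPM, here and below, is the count relative to the library size, scaled with TMM factors and listed in the order of replicates 1, 2 and 3. A log2 fold change is the knockout level over the control level, with its standard error (SE). Tests were edgeR's quasi-likelihood tests, with p-values adjusted by Benjamini-Hochberg over 13323 tested genes, with n = 3 libraries per group and a threshold of 0.05. Of the 33 genes, 29 passed the filter on low counts and were tested. Lama3 and Dmd had no count in any library, and Lamc3 and Sgca had at most 8 and 3 counts per library.

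Most of the changes were decreases. Among the 29 tested genes 20 passed the threshold (69.0%), against 52.6% of all tested genes. Of these, 17 were lower (58.6%, against 26.2% of all tested genes) and 3 were higher (10.3%, against 26.4%). A decrease of at least 1.5-fold was reached by 13 genes (44.8%, against 11.6%) and an increase of that size by 1 (3.45%, against 11.0%). In 21 of the 29 genes the control and knockout ranges were apart (72.4%, against 57.8% of all tested genes). The median log2 fold change was -0.37, against -0.00 over all tested genes. This median is the value of Col4a3, a low gene that did not pass the test (SE 0.293, adjusted p = 0.294). The lowest and highest values were -2.10 for Col15a1 and 0.83 for Lama4. These genes and the gene lists below were chosen with earlier results of these data known. Their shares beside those of all tested genes are therefore descriptions, not tests of an excess. The counts also depend on the scaling for genes with small changes. With library totals alone in place of TMM factors the median of all genes moved by 0.13 (log2), and 6 of the 29 genes were higher and 16 lower, beside 5305 higher and 2405 lower of all tested genes.

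**Figure D1:**
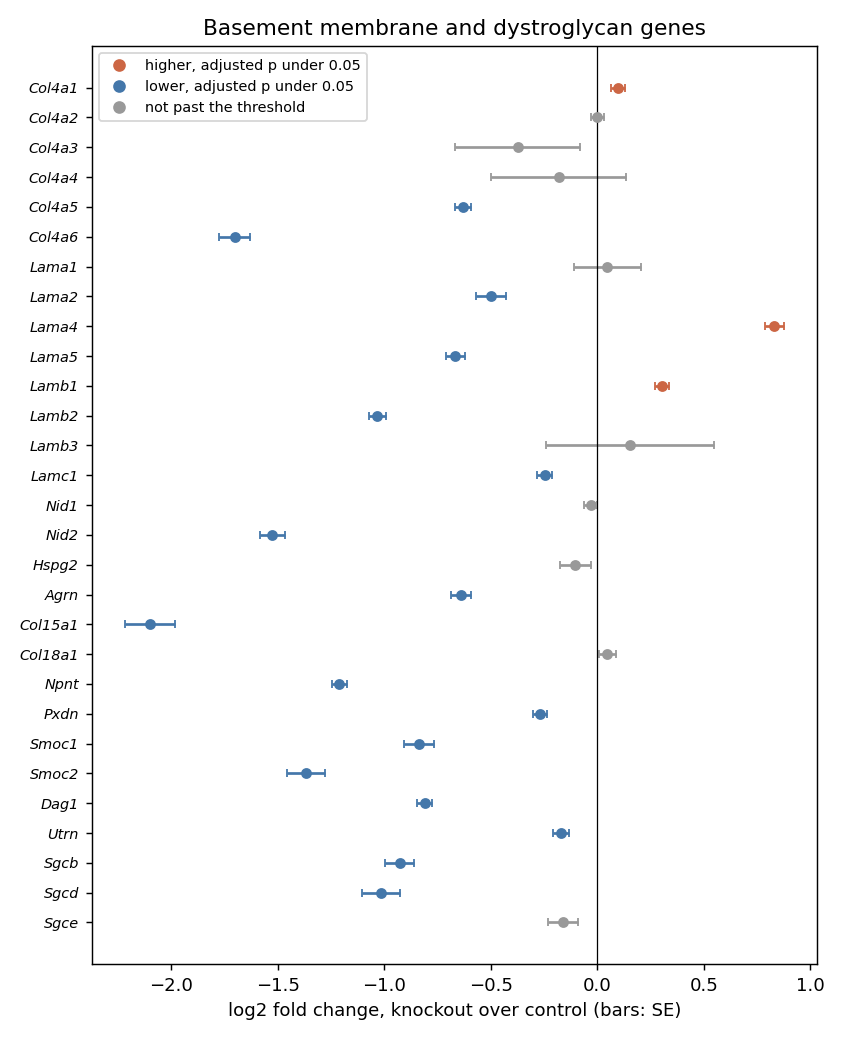
Log2 fold change, knockout over control, for the 29 tested genes (points, with SE as bars), ordered by role from collagen IV at the top to the sarcoglycans at the bottom. Most points lie to the left of 0, Col15a1 farthest at -2.10, and Lama4 lies farthest to the right at 0.83.

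The collagen IV chains split by chromosomal pair. Col4a1 and Col4a2, which encode the chains of the collagen IV network found in nearly all basement membranes, kept close to their control level, while Col4a5 and Col4a6, whose chains form a further network in smooth muscle, fell. Col4a2 stood at 1562, 1527 and 1637 CPM in control and at 1649, 1569 and 1510 CPM in knockout libraries. These values overlap, and the log2 fold change was 0.00051 (SE 0.0319, adjusted p = 0.991). With library totals alone Col4a2 was higher (0.13, adjusted p = 1.18e-04), and it took the negative sign with upper-quartile factors (-0.0060). Col4a1 stood at 485, 493 and 463 CPM in control and at 522, 515 and 506 CPM in the knockout. The groups did not overlap, but the difference was 1.07-fold (log2 fold change 0.10, SE 0.0339, adjusted p = 0.0129), and it missed the threshold without control replicate 3 (adjusted p = 0.0914) or knockout replicate 1 (0.0611). With library totals alone the log2 fold change of Col4a1 was 0.23 (adjusted p = 1.32e-08).

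Col4a5 stood at 298, 308 and 303 CPM in control and at 199, 195 and 195 CPM in knockout libraries, 1.55-fold lower (log2 fold change -0.63, SE 0.0376, adjusted p = 5.6e-23). Col4a6 fell further, from 75.0, 74.2 and 83.5 CPM to 25.9, 22.1 and 23.4 CPM. This is a 3.25-fold lower level (-1.70, SE 0.0727, adjusted p = 3.08e-30), and the highest knockout library lay far below the lowest control library. Col4a3 and Col4a4, which with Col4a5 form the collagen of the kidney glomerulus, were near the limit of detection at 1.29 to 2.68 CPM and overlapped between groups. Neither passed the test (adjusted p = 0.294 and 0.664).

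**Figure D2:**
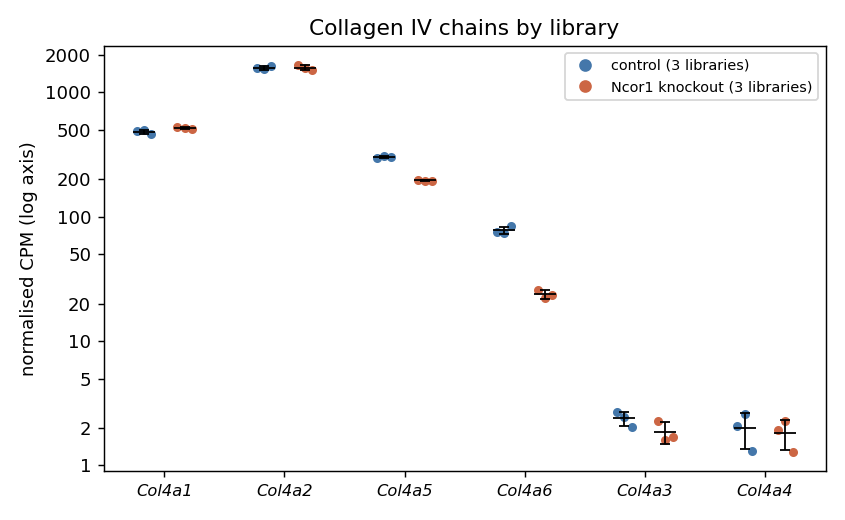
Normalised CPM of the collagen IV genes on a log axis in 3 control and 3 knockout libraries (points), with mean and SD. Col4a1 and Col4a2 lie at similar heights in both groups, and Col4a5 and Col4a6 lie lower in every knockout library than in every control library.

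CPM does not allow for gene length, so levels of different genes were compared by FPKM, which does. Col4a2 made up 65.1% ± 1.15 (SD, n = 3) of the summed collagen IV FPKM in control and 68.7% ± 0.598 in knockout libraries, and Col4a1 19.3% ± 0.972 and 21.8% ± 0.427. The share of Col4a5 went from 12.4% ± 0.337 to 8.44% ± 0.214 and that of Col4a6 from 3.10% ± 0.148 to 1.00% ± 0.0609. Such shares are taken within a library, so the scaling between libraries does not enter them. For each of these 4 genes the knockout libraries lay on the same side of all control libraries. Within the second pair, the ratio of Col4a5 to Col4a6 FPKM rose from between 3.72 and 4.25 in control to between 7.84 and 9.01 in the knockout.

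Each pair lies head to head and is read outward from a common region, which is why the promoters of both pairs are shown. In RefSeq's annotation of GRCm38.p6 the start sites of Col4a1 and Col4a2 lie 21 bases apart, with 22 bases read from both strands, so reads from that short overlap cannot be assigned where strand is not used. The starts of Col4a6 and Col4a5 on the X chromosome lie 1343 bases apart, with no shared bases. The windows below run from 250 bases before to 50 bases after the start, in the direction of each gene: chr8:11312777-11313076 (minus strand) for Col4a1, chr8:11312555-11312854 (plus) for Col4a2, chrX:141475169-141475468 (plus) for Col4a5 and chrX:141474027-141474326 (minus) for Col4a6. Capitals mark GC boxes (GGGCGG) and CCAAT boxes (CCAAT) on either strand.
Col4a1: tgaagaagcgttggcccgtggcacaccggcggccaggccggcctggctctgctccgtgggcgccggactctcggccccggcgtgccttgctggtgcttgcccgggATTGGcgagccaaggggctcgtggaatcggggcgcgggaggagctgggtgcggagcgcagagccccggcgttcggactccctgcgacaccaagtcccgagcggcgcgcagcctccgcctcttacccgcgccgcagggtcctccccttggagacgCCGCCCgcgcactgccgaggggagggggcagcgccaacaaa
Col4a2: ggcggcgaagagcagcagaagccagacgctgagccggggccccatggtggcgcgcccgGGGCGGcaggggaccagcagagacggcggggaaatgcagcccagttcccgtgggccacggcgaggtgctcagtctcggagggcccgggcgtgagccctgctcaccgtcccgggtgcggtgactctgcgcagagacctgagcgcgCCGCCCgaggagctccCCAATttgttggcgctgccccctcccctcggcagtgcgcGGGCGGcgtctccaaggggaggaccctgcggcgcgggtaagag
Col4a5: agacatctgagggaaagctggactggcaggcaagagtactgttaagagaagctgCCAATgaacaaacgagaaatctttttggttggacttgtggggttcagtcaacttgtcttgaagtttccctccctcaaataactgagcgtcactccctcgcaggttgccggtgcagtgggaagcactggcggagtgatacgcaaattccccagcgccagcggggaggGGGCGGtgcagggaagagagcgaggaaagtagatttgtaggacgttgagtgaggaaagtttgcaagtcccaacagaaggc
Col4a6: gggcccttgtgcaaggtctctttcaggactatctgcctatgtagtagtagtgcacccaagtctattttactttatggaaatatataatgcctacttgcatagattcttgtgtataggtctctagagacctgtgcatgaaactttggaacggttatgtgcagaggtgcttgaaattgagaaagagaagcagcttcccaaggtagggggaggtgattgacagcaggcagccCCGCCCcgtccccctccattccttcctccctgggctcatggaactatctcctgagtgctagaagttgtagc
The windows of Col4a1 and Col4a2 overlap by 78 bases, so part of each is the complement of the other. They are rich in G and C (74.0% and 73.7%), more so than those of Col4a5 (52.7%) and Col4a6 (48.3%). A GC box occurs once in the Col4a1, Col4a5 and Col4a6 windows and 3 times in that of Col4a2, and a CCAAT box once in each but that of Col4a6. The GC box of Col4a1 lies in the overlap and is the same site as the last GC box of Col4a2. None of the 4 windows holds TATAAA. Among 32851 windows of this length in the same table, 35.7% hold a GC box, 37.4% a CCAAT box and 13.6% TATAAA.

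The laminin chains changed in opposite directions within the alpha and the beta class. Lama4, whose chain is typical of endothelial and some muscle basement membranes, rose, as did Lamb1, while Lama5, Lama2 and Lamb2 fell. Lama4 stood at 112, 109 and 107 CPM in control and at 206, 198 and 181 CPM in knockout libraries, a 1.78-fold higher level (log2 fold change 0.83, SE 0.0461, adjusted p = 1.93e-24). Lama5, which encodes an alpha chain widespread in adult basement membranes, fell from 183, 183 and 186 CPM to 124, 113 and 112 CPM (-0.67, SE 0.0445, adjusted p = 1.02e-20). Lama2, the alpha chain of muscle and nerve, fell from 47.8, 48.1 and 52.2 CPM to 33.7, 35.7 and 35.1 CPM (-0.50, SE 0.0714, adjusted p = 1.42e-08). In all 3 genes the groups were apart. Lama1, an alpha chain of the early embryo, was low at 7.27 to 8.68 CPM over all libraries and did not pass the test (adjusted p = 0.826). Lama3, an epithelial alpha chain, was listed at 0 in every library, which allows up to 3 counts, or 0.298 to 0.439 CPM depending on the library.

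Lamb1 stood at 460, 465 and 442 CPM in control and at 573, 573 and 541 CPM in knockout libraries, 1.23-fold higher (log2 fold change 0.30, SE 0.0342, adjusted p = 1.41e-11). Lamb2, its alternative in the trimer and the beta chain of many mature vessel and muscle basement membranes, went from 471, 462 and 509 CPM to 235, 247 and 224 CPM, 2.04-fold lower (-1.03, SE 0.0386, adjusted p = 6.4e-32). Groups were apart for both genes, in opposite directions. Lamc1, the gamma chain shared by most laminins, went from 569, 605 and 564 CPM to 494, 503 and 469 CPM (-0.25, SE 0.0346, adjusted p = 7.91e-09). Its decrease did not pass the test on log2(FPKM + 1) (-0.11, adjusted p = 0.0609). Lamb3 and Lamc3, chains of epithelial and rarer laminins, stood at 0.404 to 1.88 CPM. Lamb3 did not pass the test (adjusted p = 0.772).

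**Figure D3:**
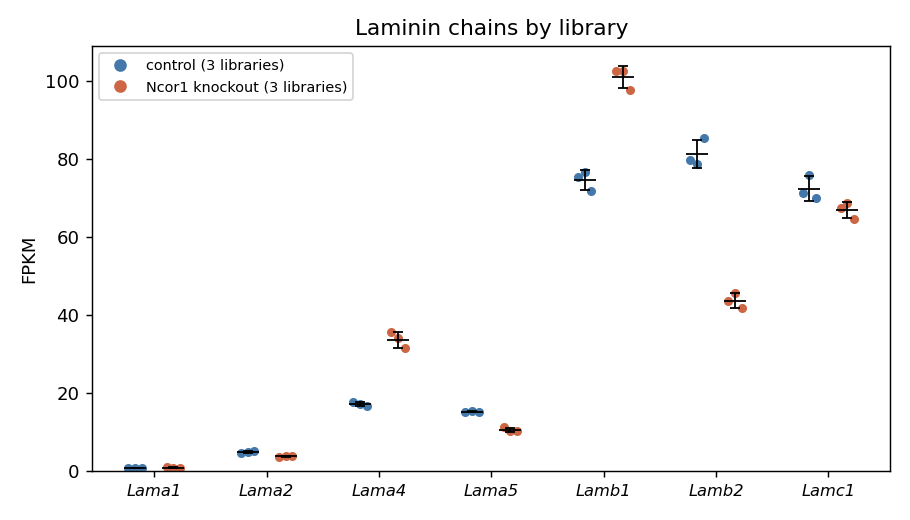
FPKM of 7 laminin genes (Lama3, Lamb3 and Lamc3, at or near 0, are left out) in 3 control and 3 knockout libraries (points), with mean and SD. Lama4 and Lamb1 lie higher in the knockout and Lama5 and Lamb2 lower, so the nearly equal Lamb1 and Lamb2 levels of the control part in the knockout.

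These shifts altered the balance of chains within the alpha and the beta class. Lama4 took 46.2%, 45.4% and 44.1% of the summed alpha-chain FPKM in control and 69.3%, 69.6% and 68.0% in knockout libraries. Over the same libraries Lama5 went from 40.0% ± 0.377 to 21.6% ± 0.549 (SD, n = 3) and Lama2 from 12.7% ± 0.603 to 7.68% ± 0.580. The ratio of Lama4 to Lama5 was thus 1.10 to 1.17 in control and 3.10 to 3.33 in the knockout. Among the beta chains Lamb1 took 48.5%, 49.3% and 45.6% in control and 70.1%, 69.0% and 69.9% in the knockout, and Lamb2 nearly all of the remainder. Lamc1 made up 99.8% of the gamma-chain FPKM in both groups. The control and knockout ranges of the Lama4, Lama5, Lama2, Lamb1 and Lamb2 shares were all apart. Most endothelial markers were higher and most smooth muscle markers lower beside these shifts, as given above. The part of either cell type in the rise of Lama4 and Lamb1, or in the fall of Lama5, Lama2 and Lamb2, was not tested.

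The windows at the starts of Lamb1 (chr12:31265043-31265342, plus strand) and Lamb2 (chr9:108479612-108479911, plus) are shown as those of a pair of alternative beta chains that moved in opposite directions, with the same marks.
Lamb1: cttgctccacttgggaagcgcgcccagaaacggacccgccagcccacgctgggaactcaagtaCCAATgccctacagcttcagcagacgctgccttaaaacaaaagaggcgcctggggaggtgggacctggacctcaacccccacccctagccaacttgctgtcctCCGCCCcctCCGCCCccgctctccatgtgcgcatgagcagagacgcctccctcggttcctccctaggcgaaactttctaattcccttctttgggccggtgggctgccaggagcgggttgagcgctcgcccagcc
Lamb2: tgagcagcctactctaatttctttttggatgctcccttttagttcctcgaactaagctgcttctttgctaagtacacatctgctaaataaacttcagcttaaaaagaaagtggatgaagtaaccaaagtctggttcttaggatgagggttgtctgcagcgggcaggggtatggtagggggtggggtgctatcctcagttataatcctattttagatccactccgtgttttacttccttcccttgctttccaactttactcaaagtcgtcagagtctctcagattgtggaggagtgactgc
Lamb1 holds 2 GC boxes and 1 CCAAT box and is 63.7% G and C, whereas Lamb2 holds 0 of either motif and is 44.0% G and C. A match, or its lack, describes only the letters of this window. Of the 33 genes, 23 had windows in the table, 29 in all. The CArG box, a motif bound by serum response factor, lay in 2 of the 29 windows (Dmd and Lama2), against 1.63% of all windows. AP-1's motif TGANTCA lay in 1 of the 29 (Dmd), against 7.81% of all windows. A GC box lay in 19 of them, a CCAAT box in 9 and TATAAA in 2, against 35.7%, 37.4% and 13.6% of all windows.

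The nidogens, which join laminin to collagen IV, also parted. Nid1 stood at 804, 796 and 808 CPM in control and at 790, 792 and 774 CPM in knockout libraries. The groups were narrowly apart, and the log2 fold change of -0.032 (SE 0.0313) did not pass the test (adjusted p = 0.415). With library totals alone it turned to 0.10 (adjusted p = 0.00389). Nid2 fell from 119, 115 and 106 CPM to 41.0, 40.0 and 38.2 CPM, a 2.88-fold lower level (-1.52, SE 0.06, adjusted p = 3.92e-32). Nid1 was the more abundant by FPKM in every library, 5.44 to 6.15 times Nid2 in control and 15.6 to 16.4 times in the knockout. In the GRCm38.p6 annotation Nid2 overlaps Rtraf, listed in the count table under its older symbol 2700060E02Rik, so reads shared by the 2 genes are uncertain. The log2 fold change of 2700060E02Rik was -0.19 (SE 0.0507).

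Among the proteoglycans, agrin and collagen XV fell while perlecan and collagen XVIII did not pass the test. Col15a1, which encodes collagen XV, the collagen that anchors basement membranes to the matrix around muscle and capillaries, had the largest decrease of the 29 tested genes. It fell from 28.4, 27.5 and 31.9 CPM to 7.02, 7.27 and 6.26 CPM, 4.28-fold lower (log2 fold change -2.10, SE 0.119, adjusted p = 5.14e-24). Its relative Col18a1, the source of endostatin, overlapped between groups, at 311, 303 and 342 CPM in control and 339, 333 and 315 CPM in the knockout (0.047, SE 0.0391, adjusted p = 0.324). With library totals alone Col18a1 was higher (0.18, adjusted p = 3.19e-05), as it was without control replicate 3 (0.10, adjusted p = 0.0361). By FPKM, Col18a1 exceeded Col15a1 8.64 to 8.85 times in control and 36.9 to 40.5 times in the knockout.

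Agrn, which encodes agrin, a ligand of dystroglycan, fell from 260, 258 and 264 CPM to 182, 171 and 150 CPM (log2 fold change -0.64, SE 0.0468, adjusted p = 3.79e-14). Hspg2, the gene of perlecan, stood at 1689, 1581 and 1799 CPM in control and at 1699, 1565 and 1458 CPM in the knockout. Its groups overlapped, and the change of -0.10 (SE 0.0724, adjusted p = 0.297) depended on the processing. It was called lower without robust estimation (adjusted p = 0.027), without the filter on low counts (0.0137), by limma-voom (0.0129) and without knockout replicate 1 (-0.16, adjusted p = 0.00111), and it turned to 0.031 with library totals alone (adjusted p = 0.701).

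All 4 genes of proteins that bind or modify the basement membrane were lower, against 26.2% of all tested genes. Npnt encodes nephronectin, an integrin ligand, and by FPKM it ranked second of the 33 genes in control, after Col4a2. It fell from 714, 699 and 693 CPM to 294, 316 and 301 CPM, 2.31-fold (log2 fold change -1.21, SE 0.0347, adjusted p = 1.66e-39), the smallest adjusted p of the 29 tested genes. Smoc1 and Smoc2 encode calcium-binding proteins related to SPARC. Smoc2 fell from 38.4, 40.1 and 40.9 CPM to 16.7, 13.9 and 15.5 CPM (-1.37, SE 0.0905, adjusted p = 6.99e-21), and Smoc1 from 95.8, 97.5 and 116 CPM to 63.7, 56.3 and 53.1 CPM (-0.84, SE 0.0703, adjusted p = 4.14e-11). The groups were apart in both genes. Pxdn encodes peroxidasin, which crosslinks collagen IV through sulfilimine bonds, and it changed less, from 592, 579 and 595 CPM to 502, 498 and 467 CPM (-0.27, SE 0.0339, adjusted p = 4.46e-10).

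**Figure D4:**
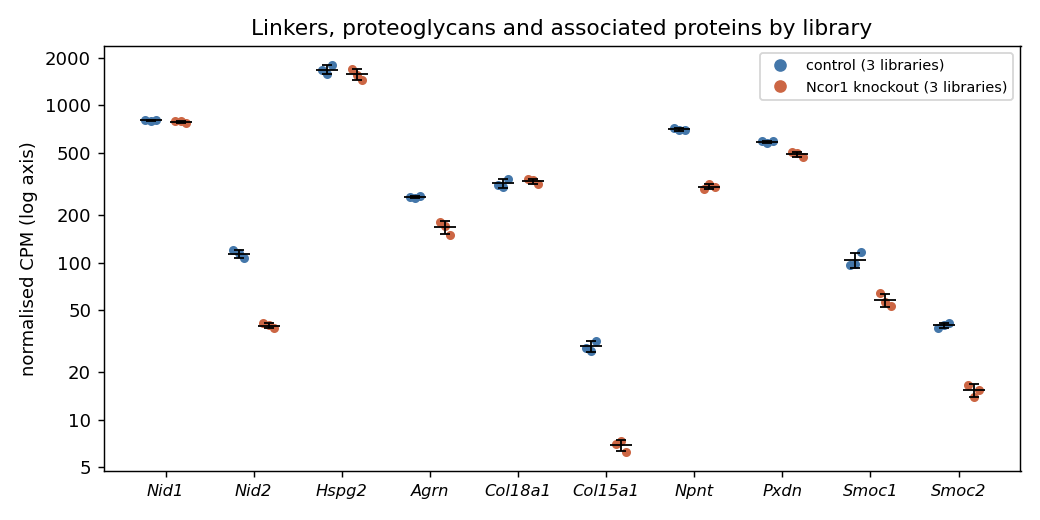
Normalised CPM of nidogens, proteoglycans and associated proteins on a log axis in 3 control and 3 knockout libraries (points), with mean and SD. Nid2, Col15a1, Npnt and Smoc2 show the widest gaps between groups, while Nid1 is only narrowly lower and Hspg2 and Col18a1 overlap.

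On the receptor side, dystroglycan and the sarcoglycans beta and delta were lower, whereas utrophin changed little. Dag1, which encodes both subunits of dystroglycan, stood at 531, 530 and 537 CPM in control and at 307, 312 and 294 CPM in knockout libraries, 1.75-fold lower (log2 fold change -0.81, SE 0.0348, adjusted p = 4.18e-30). Utrn, which encodes a homologue of dystrophin, went from 312, 308 and 305 CPM to 286, 272 and 264 CPM (-0.17, SE 0.0371, adjusted p = 7e-05). Its groups were apart, but with library totals alone the change of -0.038 did not pass the test (adjusted p = 0.391). The ratio of Dag1 to Utrn FPKM was 3.96 to 4.10 in control and 2.49 to 2.66 in the knockout, without overlap. Dmd, the dystrophin gene, was listed at 0 in all 6 libraries, and the table describes its row by the name of a short dystrophin isoform. The annotation and the counting rule are unstated, so a listed 0, that of Lama3 included, was not shown to be a lack of transcript.

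The sarcoglycans form a transmembrane complex beside dystroglycan. Sgcb fell from 69.4, 73.6 and 72.8 CPM to 34.6, 43.1 and 36.2 CPM (log2 fold change -0.93, SE 0.0681, adjusted p = 7.66e-19). Sgcd fell from 45.3, 39.1 and 38.7 CPM to 18.6, 23.0 and 19.8 CPM (-1.01, SE 0.0875, adjusted p = 6.73e-16). In both, the lowest control library lay well above the highest knockout library. Sgce, which in smooth muscle takes the place that Sgca has in striated muscle, overlapped between groups, at 57.9, 50.1 and 49.0 CPM in control and 52.0, 42.7 and 46.2 CPM in the knockout (-0.16, SE 0.0715, adjusted p = 0.0521). It passed the threshold without control replicate 2 (adjusted p = 0.0311), control replicate 3 (0.0272) or knockout replicate 1 (0.00973), and with upper-quartile factors (0.0409). Sgca had 1 to 3 counts per control library and 0 or 1 per knockout library. By FPKM, Sgce exceeded Sgcd 4.01 to 4.06 times in control and 5.88 to 8.84 times in the knockout.

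**Figure D5:**
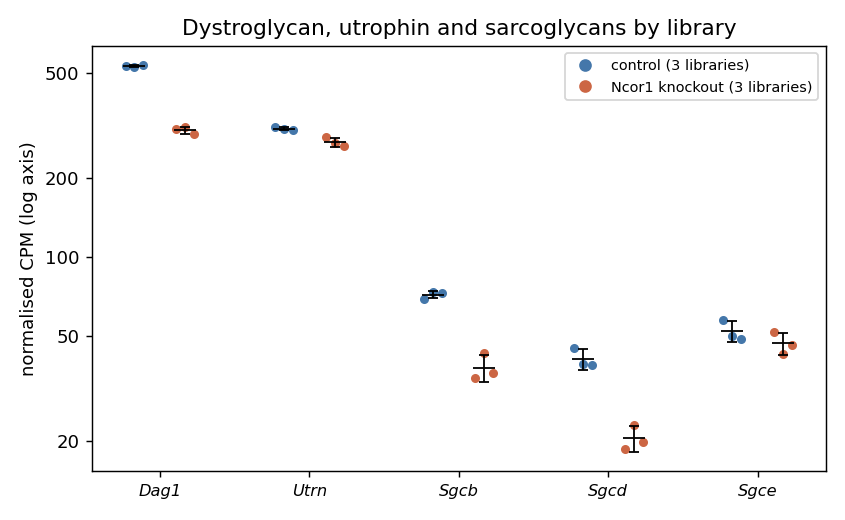
Normalised CPM of dystroglycan, utrophin and sarcoglycan genes on a log axis in 3 control and 3 knockout libraries (points), with mean and SD. Dag1, Sgcb and Sgcd lie lower in every knockout library than in every control library, Utrn is narrowly lower, and Sgce overlaps.

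Cytoplasmic and membrane partners of the complex outside the 33 genes were read from the same fit. Of 13 listed partners 7 were tested, with a median log2 fold change of -1.28. Of these 4 were lower (57.1%, against 26.2% of all tested genes) and 1 was higher (14.3%, against 26.4%). The lower partners included sarcospan, Sspn, which fell from 112, 108 and 110 CPM to 37.0, 35.9 and 36.4 CPM (-1.59, SE 0.0593), dystrobrevin alpha, Dtna (-1.95, SE 0.148), and syntrophin beta 1, Sntb1 (-3.36, SE 0.316). Sntb1 is low, at 5.28 to 8.19 CPM in control and 0.255 to 0.808 CPM in the knockout. The higher partner was dystrobrevin beta, Dtnb (0.71, adjusted p = 0.0418), named after its value was seen, at 1.02 to 2.06 CPM in control and 2.17 to 2.98 CPM in the knockout. The number of higher partners was 0 to 2 when each library was left out. Plectin, Plec, and syntrophin beta 2, Sntb2, did not pass the test (0.076, adjusted p = 0.483, and -0.090, adjusted p = 0.185).

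Dystroglycan binds laminin through a sugar chain built by a series of enzymes. Of 18 such genes found in the data, 17 were tested, and the median was -0.20. Of these 8 were lower (47.1%, against 26.2% of all tested genes) and 1 was higher (5.88%, against 26.4%). The share passing the test in either direction (52.9%) was near that of all tested genes (52.6%). With library totals alone 3 were lower and 3 higher. Large, whose enzyme extends the laminin-binding chain, fell from 67.8, 71.8 and 69.9 CPM to 53.4, 49.7 and 46.8 CPM (-0.49, SE 0.0627, adjusted p = 8.12e-10). Dpm3, a subunit of the mannose donor synthase, was also lower (-0.56, SE 0.147). The glycosyltransferase gene Pomgnt2 was higher (0.61, SE 0.143).

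Other receptors of laminin and collagen IV went both ways. Of 14 tested, 8 were lower (57.1%, against 26.2% of all tested genes) and 5 higher (35.7%, against 26.4%), and their median was -0.17. Itga7, the laminin-binding integrin subunit of muscle, fell from 105, 102 and 121 CPM to 27.8, 27.2 and 23.9 CPM (-2.06, SE 0.0695, adjusted p = 3.9e-34). Ddr2, a collagen receptor kinase, fell by 1.36 on the log2 scale (SE 0.0404) and the heparan sulphate proteoglycan Sdc1 by 1.16 (SE 0.0415). The laminin-binding subunit Itga3 rose from 489, 498 and 505 CPM to 946, 918 and 935 CPM (0.91, SE 0.0323, adjusted p = 1.82e-34). The remaining higher genes, named after their values were seen, were Itgb4 (1.89), Itga6 (1.15), Itga2 (0.62) and Bcam (0.47), all receptors of laminin or collagen. Endothelial cells also express several of these integrins, and the part of the higher endothelial and the lower smooth muscle markers was not tested.

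Further basement membrane proteins were mixed. Of 21 listed genes 12 were tested, and their median was -0.04. Of these 4 were lower (33.3%, near the 26.2% of all tested genes) and 5 higher (41.7%, against 26.4%). Sparc, a collagen-binding protein, fell from 6961, 6992 and 6940 CPM to 3424, 3410 and 3558 CPM (-1.01, SE 0.0286, adjusted p = 9.98e-40). Fbln2, the gene of fibulin 2, fell by 0.78 (SE 0.0298) and the netrin gene Ntn1 by 1.88 on the log2 scale (SE 0.145). Tinagl1, a laminin-binding matrix protein, rose from 259, 244 and 261 CPM to 586, 589 and 595 CPM (1.21, SE 0.0355, adjusted p = 5.68e-39).

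Enzymes and chaperones of collagen folding were mostly lower. Of 16 found in the data, 15 were tested, and the median was -0.37. Of these 12 were lower (80.0%, against 26.2% of all tested genes) and 1 was higher (6.67%, against 26.4%). They serve the fibrillar collagens too, so the list is not specific to collagen IV. The collagen chaperone gene Serpinh1 fell from 3065, 3009 and 3221 CPM to 1942, 1932 and 1944 CPM (-0.68, SE 0.0297, adjusted p = 1.41e-29). The lysyl hydroxylase gene Plod2 (-0.82, SE 0.0429), the prolyl 4-hydroxylase subunit gene P4hb (-0.41, SE 0.0299) and the prolyl 3-hydroxylase gene Lepre1 (-0.63, SE 0.0464) were lower as well.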

How the data were processed

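RNA sequencing libraries of cultured mouse vascular smooth muscle cells were grouped by their titles, 3 control and 3 Ncor1 knockout. Per the submitters' processing notes, the tools include HISAT2 2.0 and the build mm9. Counter, annotation, strandedness and filters are named in no label or header read here. The deposited count table holds raw whole-number counts by gene symbol, and the deposited FPKM table holds values scaled to gene length and library total. The members and the other gene lists were chosen with earlier results of these data known.

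Counts were fitted as deposited with edgeR 4.0.16 in R 4.3.3 (filterByExpr, TMM factors, robust quasi-likelihood test, two-sided) on the whole table, with no replicate term. Of 23349 genes with any count 13323 were tested. The SE was the absolute log2 fold change over the root of the F statistic. A call needed a Benjamini-Hochberg adjusted p under 0.05, and the 1.5-fold rule was added after the data were seen. Members with at least 100 counts in a library, 25 genes, are given library by library, and of other lists the 4 called genes with the smallest adjusted p, except 2 that are not reported here. FPKM served for shares and ratios, with no test. Promoter windows are RefSeq's, of build GRCm38.p6, and differ in build from the counts. The fitting script was checked on simulated counts. Counts of 2 libraries of a group differed by more than sampling noise (chi-square per degree of freedom 1.36 to 1.78), so none was treated as a duplicate. This does not show that the libraries come from separate mice. The common coefficient of variation between libraries of a group, beyond counting noise, was 3.05% in the edgeR fit. Limits for counts of 0 (3 counts) cover counting error only.

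Alternatives were DESeq2 size factors, library totals, upper-quartile factors, no filter, at least 1 CPM in 3 libraries, no robust estimation, DESeq2 1.42.0, limma-voom (limma 3.58.1), limma on log2(FPKM + 1), limma on log2(FPKM + 0.1), both for genes reaching 1 FPKM in 3 libraries, log2(FPKM + 1) without filter, each library left out, and the replicate number as a block. Fold changes on the log2(FPKM + pseudocount) scale understate those of low genes.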

Additional observations from a re-analysis of the deposited data

How the results depend on the processing

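Of 20 called genes among the 29 tested, 17 kept their call and direction in all 18 alternatives, the exceptions being Col4a1, Lamc1 and Utrn. Scaling by library totals, which FPKM shares, moved the numbers of all genes called higher and lower most. With library totals alone 5305 of all genes were higher and 2405 lower, 6 members were higher and 16 lower, and the member median was -0.24. On log2(FPKM + 1), log2(FPKM + 0.1) and log2(FPKM + 1) without filter, 4695, 4680 and 4732 of all genes were higher and 2004, 1987 and 2130 lower, 6 members were higher and 15 lower in each, and the member medians were -0.48, -0.49 and -0.11 over 25, 25 and 31 genes. The filtered FPKM fits leave out low members, and the pseudocount shrinks the fold changes of low genes. These FPKM medians therefore do not show the scaling alone. Without each replicate the member median was -0.48 to -0.28.

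Signs turned in genes with no call. Nid1 became 0.10 with library totals and in all 3 FPKM fits, and Hspg2 0.031 with library totals and 0.0298, 0.0300 and 0.0298 in the FPKM fits. Col4a2 became -0.0060 with upper-quartile factors and -0.000934 by limma-voom, and -0.0324 to 0.0378 without each replicate. Col4a4 became 0.00196 on log2(FPKM + 1) without filter. Leaving out a replicate gave -0.380 to 0.0584 for Col4a4, -0.0119 to 0.108 for Lama1 and -0.210 to 0.379 for Lamb3. Library totals and upper-quartile factors changed only the scaling, and moved the median gene by 0.134 and -0.0063 (log2). The cause of the other sign changes was not tested.

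In the glycosylation list 3 genes were higher with library totals and in all 3 FPKM fits, and 3, 2, 2 and 3 lower in these 4, against 4 lower by DESeq2; without each replicate 1 to 2 were higher and 5 to 8 lower. Among other dystrophin partners 2 were higher with library totals and with at least 1 CPM in 3 libraries, 0 with the replicate block, and 0 to 2 without each replicate. Samples of the same number did not deviate together (correlations 0.00398, 0.0159 and 0.0232), so the replicate block was not treated as pairing; with it 3 members were higher and 18 lower, Sgce among them (adjusted p = 0.0429).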
